A study of Homo sapiens with 38 samples.

Results

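The hypoxia and glycolysis genes described here are 41 genes, taken by symbol from the 60252 genes of the deposited expression tables, and all 41 were found. They hold 16 glycolytic enzymes, 3 glycolysis regulators, 3 glucose and lactate transporters, 4 genes of oxygen sensing, 5 secreted or surface proteins and 10 intracellular proteins that low oxygen is known to induce. RNA-seq was made from 18 libraries of RWPE-1, an immortalized and non-tumorigenic line of normal prostate epithelium grown in keratinocyte serum-free medium, and from 18 libraries of C4-2B, a prostate cancer line derived from LNCaP and grown in RPMI medium with fetal bovine serum. In RWPE-1 there were 7 libraries in which genome editing had removed a region of 7p15.2 that holds prostate cancer risk variants, and 5 wild type controls of that experiment, 3 libraries of cells transfected with a HOXA13 expression vector and 3 of cells transfected with an eGFP plasmid. Transfected cells of both kinds were collected 48 hours after transfection, and a sorter kept the brightest 10% for eGFP, a step not stated for the deletion and control libraries. In C4-2B there were 3 control lines (control1, control2 and control3) and 3 lines with the same deletion (m, le5 and ld9), with 3 libraries each. C4-2B is tetraploid, and its deletion took 2 rounds of editing with puromycin after the second round, so that the 3 deletion clones come from 2 first-round colonies. Which clone comes from which colony, and how the control lines were made, is not stated. The labels name no oxygen level and no cell density. For RWPE-1 deletion and control libraries they name neither clones nor cultures, so p-values there measure only the spread between libraries.

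Cells sense oxygen through the hypoxia-inducible factors (HIFs). The alpha subunits, HIF1A and EPAS1, are made all the time, and in the presence of oxygen they are hydroxylated by the prolyl hydroxylases EGLN1 and EGLN3 and then degraded. When oxygen falls the alpha subunits persist, pair with ARNT, bind a short core motif and switch on genes for glucose uptake, glycolysis, lactate export, blood vessel growth and matrix hydroxylation. The factors are controlled mostly through their protein, so the mRNA of HIF1A is a poor guide to its activity, and targets such as CA9, EGLN3 and ANKRD37 are the usual readout. Glycolytic enzymes also answer to other inputs, such as MYC-family factors, growth signals and nutrients.

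The core motif of HIF binding is ACGTG, which was searched on both strands, so that CACGT is its other strand and CACGTG holds both. RefSeq promoter windows, from 250 bases before to 50 bases after an annotated start, were found for 37 members, and 23 of them (62.2%) had ACGTG in at least 1 window, against 24.9% of all 27305 genes with a window. Per window the shares were 40.3% of 67 member windows and 21.4% of 35116 windows in all. Member windows were richer in G and C (median 68.7%) than all windows (58.7%), and a gene with several windows has more chances of a match. The alternative core GCGTG was in 41.8% of member windows and 36.5% of all windows. Per gene, 59.5% of members and 40.6% of all genes had it in at least 1 window. A match is a description of these letters and not a site of binding. The following stretches stand 5′ to 3′ on the strand of the gene, upstream of the RefSeq start (build GRCh38.p14), with the motif in capitals. They were chosen from the members that the results below turn on and that have a single annotated window with the motif.

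PGK1: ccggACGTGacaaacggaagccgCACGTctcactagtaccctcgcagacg

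ALDOC: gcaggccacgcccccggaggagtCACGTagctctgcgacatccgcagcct

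ENO2: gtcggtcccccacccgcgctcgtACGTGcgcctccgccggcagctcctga

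DDIT4: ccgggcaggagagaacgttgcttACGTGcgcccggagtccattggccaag

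BNIP3: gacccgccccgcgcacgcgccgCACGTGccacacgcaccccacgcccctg

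ANKRD37: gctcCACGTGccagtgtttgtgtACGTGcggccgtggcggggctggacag

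EGLN1: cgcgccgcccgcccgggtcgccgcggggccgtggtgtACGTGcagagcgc

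CA9: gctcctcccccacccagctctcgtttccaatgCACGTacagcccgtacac

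These lie at chrX:78104042-78104091 (plus strand) for PGK1, chr17:28576897-28576946 (minus) for ALDOC, chr12:6914439-6914488 (plus) for ENO2, chr10:72273776-72273825 (plus) for DDIT4, chr10:131982030-131982079 (minus) for BNIP3, chr4:185396675-185396724 (plus) for ANKRD37, chr1:231422288-231422337 (minus) for EGLN1 and chr9:35673878-35673927 (plus) for CA9. PGK1, whose enzyme makes the first ATP of glycolysis, holds the motif once on each strand in its 50 bases, and the palindrome CACGTG appears in BNIP3 and ANKRD37. In EGLN1 and CA9 the motif lies 13 and 18 bases before the start.

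Between 13661 and 15256 genes reached 1 TPM (a share of transcripts corrected for their length) in a library. The libraries' counts are not in the tables, so their depth is unknown and no interval for counting error is given. HOXA13 itself followed the labels in RWPE-1, with a mean of 1.16 TPM ± 0.709 (SD, n = 5) in controls, 8.03 TPM ± 1.63 (SD, n = 7) with the deletion, 2.67 TPM with eGFP and 748 TPM with the HOXA13 vector, while in C4-2B it stood at 0.964 TPM in deletion lines and 1.28 TPM in control lines. Basal cytokeratin genes were high in RWPE-1 (KRT5 at 5962 to 10310 TPM in controls) and near 0 in C4-2B, where luminal markers were high (KLK3 at 958 to 3317 TPM). Library 1 of C4-2B control3 stood apart from the other C4-2B libraries, with 28.4% of its TPM from mitochondrially encoded genes against 10.8% to 16.7%.

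The lines used the pathway at different levels, which is a description without a test because the tables were scaled separately. All 16 glycolytic enzymes together took 0.910% to 1.15% of the TPM in RWPE-1 controls and 1.55% to 1.94% in C4-2B control1 and control2, but 0.706% to 1.23% in control3. By mean the most abundant was GAPDH in C4-2B, at 4359 to 5158 TPM in control1 and control2, and PKM in RWPE-1 controls, at 1850 to 2396 TPM. The oxygen sensors were split between the lines. HIF1A stood at 220 to 527 TPM in RWPE-1 controls and at 68.5 to 141 TPM in C4-2B controls. EPAS1, the second alpha subunit, stood at 51.2 to 62.5 TPM in RWPE-1 controls and at 1.21 to 5.56 TPM in C4-2B controls. EGLN3, the hydroxylase that is also a HIF target, went the other way, at 0.140 to 2.58 TPM in RWPE-1 controls and 4.74 to 23.7 TPM in C4-2B controls.

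Among the hypoxia-induced genes the lines also differed in which member they used. ADM, a secreted vasodilator peptide, was at 0.24 TPM or less in the C4-2B controls and at 1.62 to 2.67 TPM in RWPE-1 controls. BNIP3, a mitophagy receptor, was at 113 to 415 TPM in C4-2B controls and at 21.1 to 43.9 TPM in RWPE-1 controls. Over all 41 members the mean of the control groups was more than 2-fold higher in C4-2B for 15 and more than 2-fold higher in RWPE-1 for 11, while among glycolytic enzymes it was more than 2-fold higher in C4-2B for 6 of 16 and in RWPE-1 for 0. The share over all genes was not counted, so these counts do not set the members apart from other genes. The C4-2B mean includes control3.

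Control libraries of RWPE-1 already differed among themselves in these genes, before any comparison. In bulk RNA a change in the cells present and a change in RNA per cell cannot be told apart, which holds for every value here. Members other than glycolytic enzymes, HIF1A and EPAS1 had a median SD of 0.455 (log2 scale) across the 5 controls, against 0.206 for all 16117 genes with at least 1 TPM in 3 libraries and 0.231 for the glycolytic enzymes. In the 7 deletion libraries the same medians were 0.219, 0.151 and 0.134. Control 3 was the lowest of the 5 controls for 16 of these 23 members (69.6%) and for 24.1% of all genes. Control 1 was the highest of the 5 for 8 of the 23 (34.8%) and for 20.6% of all genes. CA9, a surface carbonic anhydrase and a close readout of HIF1A, stood at 7.85, 11.8, 0.450, 6.66 and 1.67 TPM in controls 1 to 5. NDRG1, a stress-induced differentiation gene, stood at 1214, 1382, 237, 593 and 676 TPM. EGLN3 was at 2.15, 2.30 and 2.58 TPM in controls 1, 2 and 4 and at 0.14 and 0.27 TPM in controls 3 and 5. In all of these genes controls 3 and 5, or control 3 alone, were the low libraries. One deletion library, number 7, was likewise low, with CA9 at 0.390 TPM against 3.09 to 7.28 TPM in the other 6, and NDRG1 at 396 TPM, the lowest of the 7 (405.5 to 661.8 TPM in the others).

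**Figure D1:**
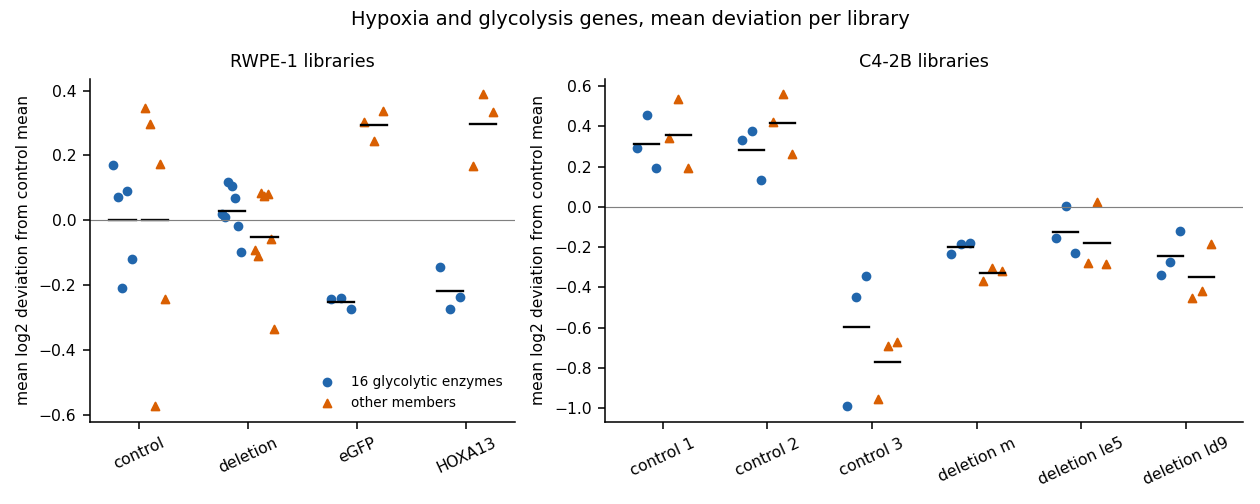
Mean deviation of log2(TPM + 1) from the mean of the control group of the same table, for the 16 glycolytic enzymes (blue circles) and 23 other members (orange triangles, without HIF1A and EPAS1), per library, with black lines at group means. RWPE-1 controls run from -0.57 to 0.35 for the other members, the 3 eGFP libraries lie below every control for enzymes and within the range of the controls for the rest, and in C4-2B all 6 libraries of control lines 1 and 2 lie above those of the other 4 lines.

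The plot of deviations per library shows this spread beside the other groups. For each library it averages the deviation of the members from the control mean on the log2(TPM + 1) scale, with no test. Controls 1 to 5 stood at 0.35, 0.30, -0.57, 0.17 and -0.24 for the 23 other members and at 0.17, 0.07, -0.21, 0.09 and -0.12 for the glycolytic enzymes. The 7 deletion libraries lay between -0.34 and 0.08 for the other members, within the range of the controls.

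Deleting the risk region in RWPE-1 left most of these genes within the spread of the controls. P4HA2 fell, EPAS1 rose and ENO1 fell slightly, and the other 37 of 40 tested members did not pass the test. P4HA2 is a subunit of the prolyl hydroxylase that matures collagen. That is 1 member higher (background 6.46% of 14186 genes tested) and 2 members lower (background 3.86%), at a Benjamini-Hochberg adjusted p under 0.05 from limma over all genes, so the share of members called was near or below the 10.3% of all genes called. The median log2 fold change was -0.05 for the 16 glycolytic enzymes, 0.00 for the 22 other members tested and 0.05 for all genes. SLC2A3 was too low to be tested, with 0.32 TPM or less in every control.

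P4HA2 stood at 80.7, 77.2, 49.0, 59.6 and 65.5 TPM in controls 1 to 5 and at 32.8 to 38.3 TPM (median 34.7) in the 7 deletion libraries, so the groups did not overlap. Its log2 fold change was -0.89 (standard error 0.10, limma adjusted p 3.28e-04), and it was called under each of the 17 alternative settings, with adjusted p from 1.17e-05 to 0.0195. P4HA2 lies on chromosome 5, and the genes around it were low as well. Of the 40 nearest tested genes, 28 were called lower and 1 higher, with a median log2 fold change of -0.42, while P4HA1, the paralogous subunit on chromosome 10, gave -0.09 (adjusted p 0.776). Per library, the median deviation of those neighbours was -0.45 to -0.35 in the 7 deletion libraries and -0.10 to 0.08 in the controls. P4HA2 thus fell together with its chromosomal neighbours, and by more than their median.

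EPAS1 stood at 56.9, 62.5, 51.2, 62.0 and 55.7 TPM in controls and at 65.8 to 81.5 TPM (median 75.0) in deletion libraries, with no overlap. Its log2 fold change was 0.38 (standard error 0.06, limma adjusted p 0.00315), and the call held under each of the 17 alternatives (adjusted p 0.00214 to 0.0289). The 40 genes around EPAS1 on chromosome 2 had a median of 0.12, with 4 called higher. HIF1A, the other alpha subunit, was at 357, 408, 220, 527 and 305 TPM in controls and at 265 to 368 TPM (median 316) in deletion libraries (-0.12, limma adjusted p 0.683), and this difference became 0.03 without control 4.

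ENO1, the main enolase of glycolysis, stood at 2110, 1858, 1875, 2156 and 1899 TPM in controls and at 1627 to 1825 TPM (median 1760) with the deletion. Its groups did not overlap, but the difference was small (-0.18, standard error 0.05, limma adjusted p 0.0451), and the call was lost in 11 of 17 alternatives, with adjusted p up to 0.230. These included each leave-out of 1 of the 7 deletion libraries, and those of controls 1 and 4. Groups that did not overlap were found for 1 member upward and 2 downward, against 4.24% and 2.47% of all genes.

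SLC16A3, the lactate exporter that HIF1A induces, shows how the controls bear on a difference. It stood at 191 and 163 TPM in controls 1 and 2, at 297, 370 and 259 TPM in controls 3 to 5, and at 173 to 195 TPM (median 183) in deletion libraries. The deletion libraries thus overlapped controls 1 and 2 and lay below controls 3 to 5, and the log2 fold change of -0.40 had a limma adjusted p of 0.120. The 34 tested neighbours of SLC16A3 on chromosome 17 were split in the same way, with median deviations of -0.28 and -0.37 in controls 1 and 2, 0.12 to 0.30 in controls 3 to 5, and -0.32 to -0.20 in deletion libraries.

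The calls also turned on single controls. Without control 2, SLC16A3 was called lower at -0.55 (limma adjusted p 0.0269). Without control 3, the low library for HIF targets, NDRG1 was called lower at -0.81 (adjusted p 0.0400) and so was VEGFA, the vessel growth factor, at -0.43 (0.0424), which brought the members called lower to 4, against 5.86% of all genes. Without control 5 the muscle-type phosphofructokinase PFKM was called higher at 0.35 (0.0315). With all libraries NDRG1 gave -0.42 with an adjusted p of 0.466, and its deletion libraries, at 396 to 662 TPM (median 558), lay within the range of controls. CA12, a second carbonic anhydrase, stood at 156, 148, 22.3, 59.7 and 81.0 TPM in controls and at 65.2 to 126 TPM (median 95.04) in deletion libraries. Its log2 fold change of 0.33 became -0.10 without control 3, and that of CA9 moved from 0.04 to -0.41.

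**Figure D2:**
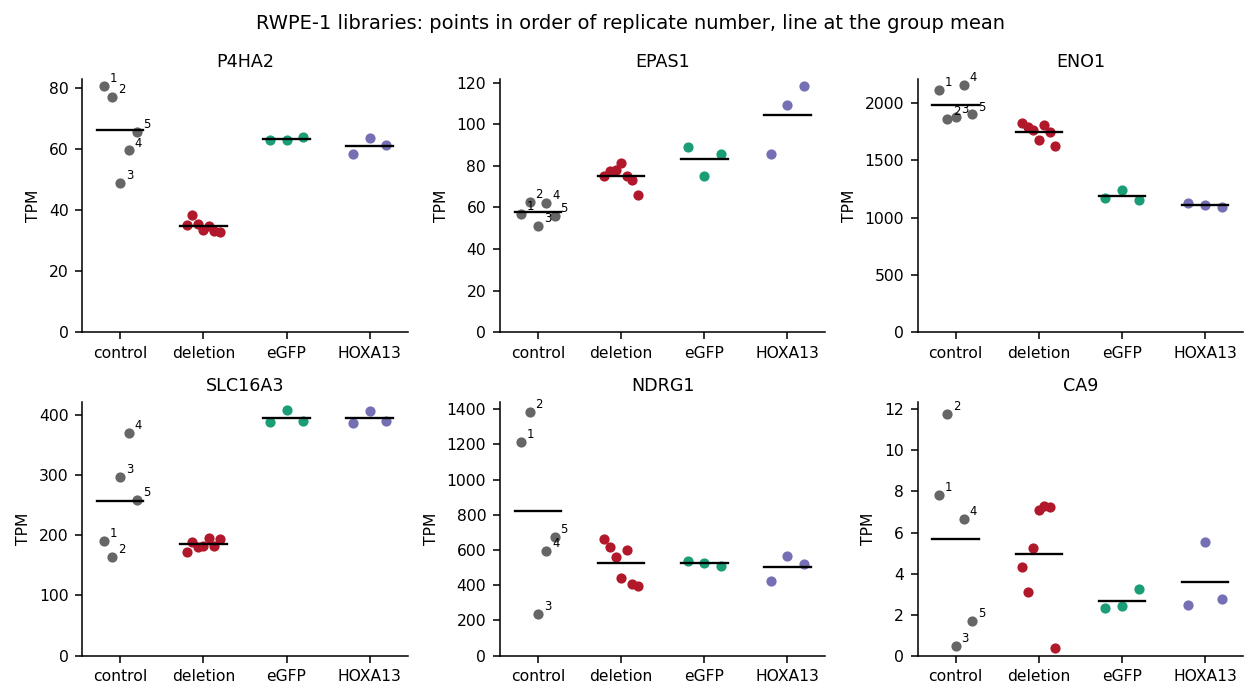
TPM of 6 members in RWPE-1 libraries (y axes from 0), in order of replicate number within a group, with the group mean as a line and the control number beside each control. P4HA2 and EPAS1 separate the deletion libraries from the controls, while SLC16A3, NDRG1 and CA9 range as widely among the 5 controls as between groups.

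Genes of the same pathway outside the 41 gave a mixed picture with the deletion, where 6.46% of all genes were called higher and 3.86% lower. Of 11 tested genes that regulate HIF, 0 were called. Of 22 tested further HIF targets, 3 rose and 2 fell: ERO1A, an endoplasmic reticulum oxidase, rose by 0.22 (limma adjusted p 0.0400), INSIG2 by 0.31 (0.0467) and LOXL2, a lysyl oxidase, by 1.15 (0.0443), while PLOD2, a collagen lysyl hydroxylase, fell by 0.99 (0.0113) and LOX fell by 0.76 (0.0454). Of 24 further genes of glycolysis, pyruvate and the pentose phosphate path, the pyruvate dehydrogenase kinase PDK3 fell by 0.84 (0.0101), the mitochondrial pyruvate carrier MPC1 fell by 0.40 (0.0263), PDHA1 fell by 0.16 (0.0243) and RPIA rose by 0.40 (0.0492). PLOD2, LOX and LOXL2 act on collagen, as P4HA2 does, and they did not move in 1 direction.

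In the authors' deposited DESeq2 table for this comparison, P4HA2 has a log2 fold change of -0.94, EPAS1 0.33 and ENO1 -0.26. That table calls 2 of 41 members higher and 3 lower, against 7.98% and 9.37% of 17985 genes with an adjusted p. Besides P4HA2, EPAS1 and ENO1 these are PFKM, at 0.23 (DESeq2 adjusted p 1.29e-05), and SLC16A3, at -0.46 (0.0145).

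Forced HOXA13 asks whether the factor itself moves these genes, with eGFP cells handled in the same way as the control. No member passed the test: 0 of 40 tested members were called, against 0.0135% of 14814 genes (2 genes), and 7 members had an unadjusted limma p under 0.05, which 13.5% of all genes had. The medians were -0.01 for the glycolytic enzymes, 0.01 for the 22 other members tested and 0.04 for all genes. The groups did not overlap for 2 members upward, PFKL and MXI1 (12.4% of all genes), and 5 downward, PGK1, ENO1, PDK1, CA12 and P4HA1 (8.68%). Of further pathway genes, 0 of 12 that regulate HIF, 0 of 22 other HIF targets and 0 of 23 of glycolysis, pyruvate and the pentose phosphate path were called.

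ENO2, the neuronal enolase, had the largest difference among members (0.81, standard error 0.34, limma adjusted p 0.369), which was 0.43 to 1.17 across alternatives. It stood at 13.4, 4.16 and 7.39 TPM in HOXA13 libraries 1 to 3 and at 4.35, 3.22 and 4.12 TPM with eGFP, so that library 1 made most of the difference. The 8 luminal markers summed to 1196 TPM in the same library, against 1027 and 848 TPM in HOXA13 libraries 2 and 3, and their part in the value of ENO2 was not tested. EPAS1 was at 85.8, 109 and 118 TPM with HOXA13 and at 89.1, 75.3 and 85.7 TPM with eGFP (0.31, adjusted p 0.358).

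PDK1, the kinase that shuts pyruvate out of the mitochondrial dehydrogenase, was at 10.3, 11.9 and 14.5 TPM with HOXA13 and at 14.9, 15.1 and 17.0 TPM with eGFP (-0.34, adjusted p 0.352). P4HA1 was at 17.5, 20.6 and 20.3 TPM and at 24.4, 23.5 and 25.3 TPM (-0.31, 0.280). SLC2A3, the neuronal-type glucose transporter, was at 2.59, 4.09 and 3.33 TPM and at 2.35, 2.00 and 2.93 TPM (0.33, 0.469). PDK1 and P4HA1 did not overlap between the groups, and neither passed the test over all genes. HIF1A stood at 306, 432 and 369 TPM with HOXA13 and 347, 364 and 372 TPM with eGFP, and CA9 at 2.49, 5.52 and 2.74 TPM and 2.32, 2.43 and 3.25 TPM. The authors' deposited table calls 4 of 40 members lower and 0 higher, against 9.64% and 2.43% of 12329 genes. The 4 are BNIP3L (log2 fold change -0.33), P4HA1 (-0.30), LDHA (-0.23) and PGK1 (-0.19).

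The 2 perturbations share no library, so their effects could be compared directly. P4HA2 was the 1 member of 41 whose response to the deletion differed from its response to HOXA13, by -0.85 (limma adjusted p 0.00774), and it was called in each of 22 alternatives. P4HA2 stood at 58.4, 63.7 and 61.4 TPM with HOXA13 and at 62.9, 62.9 and 63.9 TPM with eGFP. Of 16117 genes 4.11% differed, 2.62% with a higher and 1.48% with a lower effect of the deletion. Outside the members, the effect on ERO1A was higher with the deletion by 0.45 (adjusted p 0.0191).

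Cells transfected with eGFP and sorted were set against the RWPE-1 controls, and many more genes were called than for either perturbation. ADM, SLC2A3, ANGPTL4 and BHLHE40 rose most among the members, and PKM, ENO1, GPI and LDHA fell most among the enzymes. In all, 9 of 41 members were called higher (24.4% of 15066 genes) and 11 lower (22.7%), so the share of members called, 20 of 41, was close to the 47.1% of all genes. The sides differed by role: 10 of 16 glycolytic enzymes fell and 2 rose (median log2 fold change -0.39), while 6 of 23 other members rose and 1 fell (median 0.04, against 0.02 for all genes). Transfection, sorting, harvest and any difference in culture cannot be told apart here, and the control libraries are the same 5 as in the deletion comparison, as the eGFP libraries are those of the HOXA13 comparison.

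**Figure D3:**
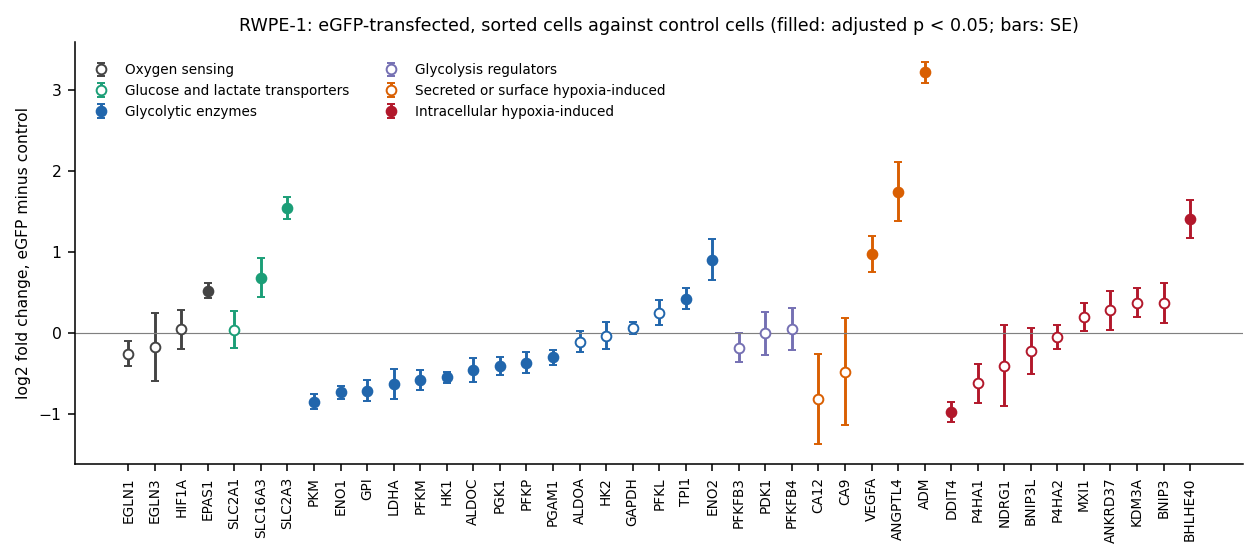
Log2 fold change of eGFP-transfected, sorted cells (3 libraries) against RWPE-1 controls (5 libraries) on the log2(TPM + 1) scale, with standard errors, by role; filled points passed the adjusted p of 0.05. Most glycolytic enzymes lie below 0, down to -0.85 for PKM, and ADM (3.22), ANGPTL4 (1.75), SLC2A3 (1.55) and BHLHE40 (1.41) lie highest.

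The secreted and surface genes split. ADM stood at 2.33, 2.02, 1.62, 2.67 and 2.64 TPM in controls and at 28.8, 30.6 and 28.03 TPM with eGFP, a difference of 3.22 (log2 scale, limma adjusted p 9.34e-07) and a ratio of mean TPM of 12.9. ANGPTL4, a secreted inhibitor of lipoprotein lipase, was at 17.9, 17.3, 11.2, 21.8 and 5.46 TPM and at 53.5, 43.0 and 46.2 TPM (1.75, adjusted p 0.00473). VEGFA was at 43.5, 45.0, 21.4, 33.6 and 42.4 TPM and at 75.0, 67.7 and 72.1 TPM (0.97, 0.00719). All 3 had eGFP libraries above every control, as had 9 of 41 members in all and 25.7% of all genes. The carbonic anhydrases did not rise with them: CA9 was at 2.32, 2.43 and 3.25 TPM and CA12 at 43.6, 39.6 and 45.2 TPM with eGFP, inside the range of the controls, and neither passed the test.

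Transporters and sensors rose in part. SLC2A3 went from 0.07 to 0.32 TPM in controls to 2.35, 2.00 and 2.93 TPM with eGFP (1.55, limma adjusted p 6.95e-05). SLC16A3 went to 389, 409 and 389 TPM, above the highest control at 370 TPM (0.69, 0.0430), a call that 7 of 13 alternatives took away. SLC2A1, the main glucose transporter, was at 85.7, 81.6 and 82.9 TPM, within the control range of 52.7 to 110 TPM. EPAS1 was at 89.1, 75.3 and 85.7 TPM against 51.2 to 62.5 TPM (0.52, 0.00194), and HIF1A was at 347, 364 and 372 TPM, within the control range (0.05, 0.877).

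Among the enzymes PKM and ENO1, near the end of the pathway, fell most. PKM, the pyruvate kinase, went from 2396, 2233, 1850, 2203 and 2321 TPM to 1207, 1274 and 1172 TPM (-0.85, limma adjusted p 1.82e-04). ENO1 went from 1858 to 2156 TPM in controls to 1173, 1244 and 1157 TPM (-0.73, 1.53e-04). LDHA, which makes lactate, went from 1853, 1900, 1153, 1245 and 1224 TPM to 949, 937 and 910 TPM (-0.63, 0.0204). These 3 had no overlap with the controls. In all, 10 of 41 members and 22.9% of all genes had every eGFP library below every control.

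Enzymes of the upper steps fell as well. GPI, which turns the phosphate of glucose into that of fructose, was at 284, 270, 202, 272 and 204 TPM in controls and at 147, 149 and 149 TPM with eGFP (-0.71, limma adjusted p 0.00248). PFKM was at 54.3, 45.6, 59.1, 56.6 and 68.8 TPM and at 37.0, 36.7 and 38.9 TPM (-0.58, 0.00451). HK1, a hexokinase, was at 147, 143, 124, 138 and 132 TPM and at 94.1, 92.1 and 93.6 TPM (-0.55, 4.45e-04). All 3 separated the groups, as 22.9% of all genes did in this direction.

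ALDOC, the brain-type aldolase, was at 42.4, 39.8, 27.4, 31.7 and 30.6 TPM in controls and at 24.0, 25.5 and 23.8 TPM with eGFP (-0.46, limma adjusted p 0.0285). PGK1 was at 969, 854, 717, 945 and 751 TPM and at 642, 650 and 606 TPM (-0.41, 0.0149). PFKP, the platelet-type phosphofructokinase, was at 141, 154, 171, 150 and 112 TPM and at 112, 122 and 102 TPM (-0.36, 0.0488). PFKP overlapped with control 5, and its call was lost in 10 of 13 alternatives.

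PGAM1, the mutase that feeds enolase, was at 372, 323, 343, 405 and 309 TPM in controls and at 280, 289 and 282 TPM (-0.30, limma adjusted p 0.0284). The enzymes that rose were TPI1, which was at 394, 441, 318, 431 and 313 TPM in controls and at 528, 519 and 468 TPM with eGFP (0.42, 0.0269), and ENO2. ENO2 was at 2.36, 1.89, 0.870, 2.57 and 0.810 TPM in controls and at 4.35, 3.22 and 4.12 TPM with eGFP (0.91, 0.0185). GAPDH, in the step after TPI1, was at 1680, 1753 and 1567 TPM within the control range of 1475 to 1765 TPM, and ALDOA, HK2 and PFKL were not called either.

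The intracellular hypoxia-induced genes moved in single members. BHLHE40, a clock and stress repressor, was at 36.1, 34.2, 36.6, 39.6 and 17.9 TPM in controls and at 87.8, 79.1 and 91.8 TPM with eGFP (1.41, limma adjusted p 0.00144). DDIT4, an inhibitor of mTOR signalling, went the other way, from 696, 573, 689, 858 and 628 TPM to 346, 350 and 346 TPM (-0.97, 3.15e-04). The other 8, among them BNIP3 (0.38), ANKRD37 (0.28), KDM3A (0.38) and P4HA1 (-0.62), did not pass. The levels in the HOXA13 libraries, which were also transfected and sorted, were near those with eGFP (ADM at 25.9 to 30.2 TPM, BHLHE40 at 85.0 to 102 TPM, DDIT4 at 324 to 372 TPM and PKM at 1182 to 1263 TPM).

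The call was lost in some alternatives for 8 of the 20 members called. All 3 leave-outs of an eGFP library took the members called lower down to between 6 and 7, and the share of all genes called fell too, to between 35.3% and 38.2%. ADM, SLC2A3, BHLHE40, ANGPTL4, VEGFA, EPAS1, PKM, ENO1, GPI, HK1, PFKM and DDIT4 were called in each of 13 alternatives.

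Pathway genes outside the 41 also moved both ways, in a comparison that called 24.4% of all genes higher and 22.7% lower. Of 11 genes that regulate HIF, 2 rose and 4 fell, with CITED2, a HIF-induced competitor for the coactivator p300, up by 2.90 (limma adjusted p 7.77e-07) and EGLN2 up by 0.50 (0.00948), and CUL2 (-0.61), ARNT (-0.57), VHL (-0.42) and HIF1AN (-0.21) lower. Of 23 further HIF targets 4 rose and 7 fell, with STC2 at 1.55, SPAG4 at 0.80 and JMJD6 at 0.71 among those that rose and, among those that fell, PLOD2 at -1.29, AK4 at -0.82 and LOX at -0.96. Of 24 further genes of glycolysis, pyruvate and the pentose phosphate path 6 rose and 9 fell, with the muscle enolase ENO3 at 1.39 and PCK2 at 0.82, and with GPD1L at -1.35, TKT at -1.28 and PGD at -0.82. Markers moved as well: the summed TPM of 8 luminal markers was 869 to 958 with eGFP and 329 to 699 in controls, and that of 5 basal markers was 10450 to 11120 and 11170 to 19430. CD68 was at 134 to 158 TPM and 9.88 to 50.4 TPM, while PTPRC, the defining leukocyte marker, was at 0.00 in every one of these libraries. The part of these differences in the members' values was not tested.

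In C4-2B the 6 lines stood at different levels of most of these genes, and the 3 control lines did not share a level. Control1 and control2 were high and the 3 deletion lines lay below them. The mean of control3 was below those of all 3 deletion lines for 30 of 40 members (60.6% of all genes). A moderated F-test over the 18 libraries, which asks only whether any line differs beyond the spread between its libraries, called 32 of 40 tested members (80.0%), against 33.6% of 16225 genes. The 8 not called were HIF1A, EPAS1, SLC2A3, HK1, PFKL, PFKM, TPI1 and GAPDH. Without the control3 library that stood apart by its mitochondrial share, the F-test called 35 members. The genes called in all then rose from 5451 to 8169, so the background of this test depended on that library. After median-ratio scaling the F-test called 28 members and 4235 genes. The median SD of the line means was 0.485 (log2 scale) for the other members and 0.317 for glycolytic enzymes, against 0.218 for all genes.

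PGK1 stood at 2537, 3171 and 2286 TPM in control1, at 3033, 3118 and 2238 TPM in control2 and at 498.5, 896 and 1084 TPM in control3. In the deletion lines PGK1 was at 1319, 1491 and 1508 TPM (m), 1454, 2020 and 1504 TPM (le5) and 1256, 1458 and 1825 TPM (ld9). Control3 was thus the lowest line and the deletion lines lay in a narrow band above it, with every library below those of control1 and control2.

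DDIT4 had the widest range, 3.88 on the log2 scale between the highest and the lowest line mean. It stood at 285, 288 and 252 TPM in control1, at 340, 351 and 297 TPM in control2 and at 9.27, 28.8 and 35.7 TPM in control3. In the deletion lines it was at 62.0, 77.0 and 74.7 TPM (m), 132, 189 and 128 TPM (le5) and 99.1, 122 and 166 TPM (ld9). Line m lay below le5 and ld9 for DDIT4, with differences of 1.04 and 0.82 that did not pass the test (limma adjusted p 0.0968 and 0.206).

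Other members repeated the order of the line means, with smaller ranges than that of DDIT4. SLC2A1 was at 77.2, 93.3 and 60.6 TPM in control1, 81.7, 81.0 and 71.2 TPM in control2, 13.1, 42.3 and 39.8 TPM in control3, and 40.7 to 52.6 TPM over the 9 deletion libraries. Library 2 of control3 thus lay among the deletion libraries, and no deletion line was called different from control3 in SLC2A1 (limma adjusted p 0.0546 to 0.132). VEGFA was at 104 to 144 TPM in control1 and control2, at 33.8, 38.5 and 32.2 TPM in control3 and at 60.8 to 112 TPM (median 72.1) in deletion libraries. ENO2 was at 9.05 to 11.9 TPM in control1, 4.65 to 6.75 TPM in control2, 0.410 to 0.520 TPM in control3 and 2.32 to 6.55 TPM with the deletion. All 3 libraries of control3 were below all 9 deletion libraries in SLC16A3, PGK1, VEGFA, ENO2, DDIT4 and 7 further members, 12 of 40 in all (17.2% of all genes).

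**Figure D4:**
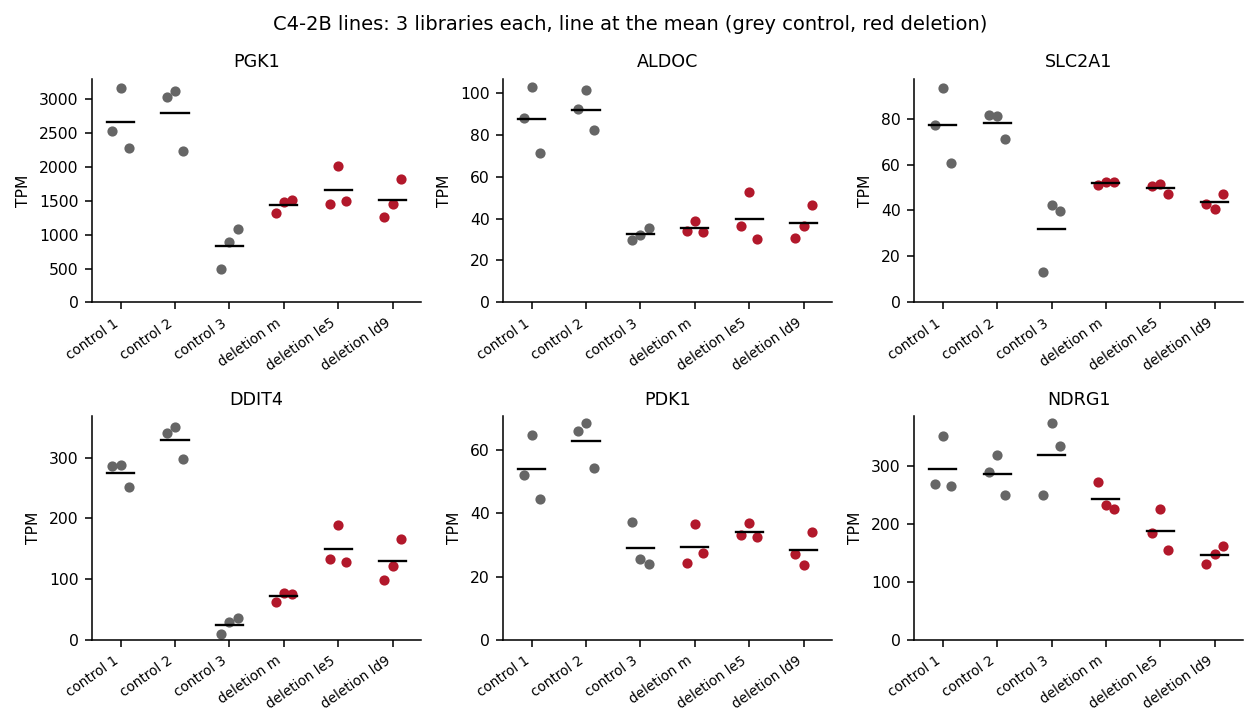
TPM of 6 members in the C4-2B lines (y axes from 0), with 3 libraries per line, control lines in grey, deletion lines in red and the mean of each line as a black bar. In PGK1, ALDOC, SLC2A1, DDIT4 and PDK1 control lines 1 and 2 lie above all other lines, while in NDRG1 control line 3 lies with them.

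Pairs of lines were compared next, with limma over the 18 libraries and p-values adjusted over genes within a pair and not across the 15 pairs. These tests use the spread between libraries of a line and say nothing of the deletion, since a line is 1 clone or culture. Control1 and control2 did not differ in any of 40 members (0 higher and 0 lower, with 0.974% and 1.38% of all genes), and the median difference was 0.04. Without library 1 of control3, 1 member was lower in control2 (5.47% of all genes). Control3 was lower than control1 in 31 members (31.9% of all genes) and lower than control2 in 35 (29%), and higher in 0 (3.75% and 4.3%). The median over all genes was itself shifted by -0.30 and -0.28 in these 2 pairs, and after median-ratio scaling, added after the data were seen, 24 and 27 members were lower (11% and 11.9%) and 1 and 2 higher (10% and 10.8%).

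The deletion lines were also lower than control1 and control2, in pairs where few genes differed. Against control1, 17 members were lower in m (2.35% of all genes), 11 in le5 (3.27%) and 19 in ld9 (2.7%). Against control2 they were 17 (3.3%), 12 (2.73%) and 21 (2.19%). In each of these 6 pairs 0 members were higher (1.57%, 1.94% and 2.22% of all genes against control1, and 2.52%, 2.16% and 2.35% against control2). The median member differences in these 6 pairs lay between -0.66 and -0.45, with medians over all genes between -0.05 and 0.00. After median-ratio scaling the counts were 17, 11 and 19 (1.96%, 2.95% and 2.83% of all genes) against control1 and 17, 13 and 21 (3.18%, 2.75% and 2.61%) against control2. Without library 1 of control3, which changes only the estimate of spread in these pairs, they were between 27 and 33 of 40 (8.96% to 13.6% of all genes), with 1 higher in le5 than in control1.

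Against control3 the direction was the opposite. In m 12 members were higher (18.4% of all genes), in le5 16 (24.2%) and in ld9 10 (27.6%), shares that for m and le5 were above and for ld9 below the background, in pairs whose medians over all genes were 0.25 to 0.28. The 1 member that was lower was NDRG1, in le5 (-0.76, limma adjusted p 0.00494) and ld9 (-1.10, 3.18e-04), while 0 were lower in m (3.91%, 3.7% and 1.84% of all genes in le5, ld9 and m). After median-ratio scaling 7, 10 and 7 members were higher (6.57%, 10.5% and 10.6% of all genes) and 1, 1 and 3 lower (5.07%, 9.59% and 9.72%) in m, le5 and ld9. Among the deletion lines few members differed: CA9, ENO2 and P4HA1 were higher in le5 than in m (2.82% of all genes), NDRG1 was lower in ld9 than in m (2.18%), and 0 differed between ld9 and le5 (0.111% higher and 0.0185% lower).

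**Figure D5:**
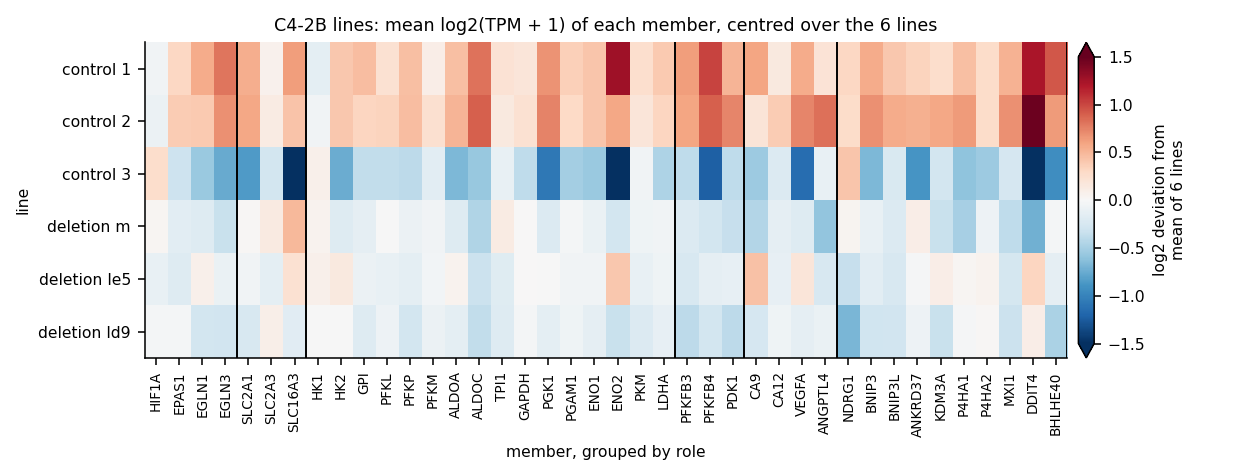
Mean log2(TPM + 1) of each of 40 members in the 6 C4-2B lines, centred on the mean of the lines (colour scale from -1.5 to 1.5), with black lines between roles. Control lines 1 and 2 are red and control line 3 blue across most enzymes, regulators and hypoxia-induced genes, and the deletion lines are mostly pale to light blue.

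The heat map of line means gives the same pattern by role. In 22 of 40 members (55.0%) all 6 libraries of control1 and control2 lay above all 9 deletion libraries, against 2.93% of 16225 genes, and in 0 members they lay below (0.968%). This count leaves out control3, and it was made after the levels of the lines were seen. It held for 11 of 16 glycolytic enzymes (GPI, PFKL, PFKP, PFKM, HK2, ALDOA, ALDOC, PGK1, PGAM1, ENO1 and PKM) and for 11 of 22 other members, among them the hydroxylases EGLN1 and EGLN3, the kinases PDK1, PFKFB3 and PFKFB4, the mitophagy receptors BNIP3 and BNIP3L, SLC2A1, MXI1, DDIT4 and BHLHE40. In 30 of 40 members all 6 libraries of control1 and control2 also lay above all 3 of control3, as they did in 27.0% of all genes.

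Averaged over the 3 libraries of a line, the 16 enzymes and the 23 other members shared the order of control1 and control2 above, then the deletion lines, then control3. These averages include the shift of control3 over all genes. The median member difference from control3 was 0.36 in m, 0.39 in le5 and 0.32 in ld9. After median-ratio scaling it was only 0.09, 0.11 and 0.06, so the place of control3 below the deletion lines depended largely on that shift. In single libraries the means of enzymes and other members were, for example, 0.46 and 0.53 in library 2 of control1, -0.99 and -0.95 in library 1 of control3 and -0.35 and -0.67 in its library 3. Pathway genes outside the 41 are given on the same scale, with no test between the sets. The 22 further HIF targets averaged 0.26 and 0.23 in control1 and control2, -0.49 in control3 and -0.14 to 0.01 in the deletion lines. The 23 further genes of glycolysis, pyruvate and the pentose phosphate path averaged 0.14, 0.12, -0.26 and 0.01 to 0.10.

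Other measures moved with the lines. Mitochondrially encoded genes took 10.8% to 12.7% of TPM in control1 and control2, 12.5% to 15.8% in the deletion lines and 15.3% to 28.4% in control3, and the 8 luminal markers summed to 4624 to 5773 TPM, 5018 to 6685 TPM and 2351 to 4223 TPM. Their part in the members' values was not tested. Without library 1, control3 was lower than control1 in 31 of 40 members (29.3% of all genes) and lower than control2 in 34 (26.9%). Then 10 members were higher in m than in control3 (17.7% of all genes), 16 in le5 (23.3%) and 11 in ld9 (26.6%). In libraries 2 and 3 of control3 PGK1, at 896 and 1084 TPM, lay below every library of the other lines, while TPI1, at 1446 and 1270 TPM, lay among those of control1 and control2.

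Taking the line as the replicate, 3 deletion lines against 3 control lines, no member passed the test. Of 38 tested members 0 were called, as were 0 of 14820 genes (0%). Log2 fold changes were below 0 for 33 of 38 members and for 4987 of the 14820 genes. At an unadjusted limma p under 0.05 there were 3 members, all lower, and 3.57% of all genes. The median was -0.16 for the glycolytic enzymes and -0.35 for the 20 other members tested, against 0.07 for all genes.

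The largest differences were those of ALDOC, NDRG1, MXI1, PDK1 and PFKFB3, all with a limma adjusted p of 0.993. ALDOC was at 88.0, 103 and 71.3 TPM in control1, 92.2, 101 and 82.2 TPM in control2 and 29.8, 32.0 and 35.5 TPM in control3, against 34.1, 38.9 and 33.4 TPM (m), 36.3, 52.5 and 30.5 TPM (le5) and 30.5, 36.4 and 46.6 TPM (ld9). The difference was -0.76 (log2 scale, standard error 0.37). The mean of control3 was below those of all 3 deletion lines, and its libraries overlapped theirs.

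In NDRG1, as in HIF1A, HK1 and TPI1 among others, control3 was not called different from control1 or control2 in the pair tests. NDRG1 was at 268, 351 and 264 TPM in control1, 290, 319 and 249 TPM in control2 and 249, 373 and 333 TPM in control3, and at 272, 232 and 226 TPM (m), 183, 225 and 154 TPM (le5) and 130, 148 and 162 TPM (ld9). The difference was -0.66 (log2 scale, standard error 0.18), and the line means of the 2 groups did not overlap, as was also true of MXI1 and PKM, 3 members in all against 2.38% of genes, while 0 members were higher without overlap (7.11% of genes).

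MXI1, an antagonist of MYC-family factors, was at 36.6, 42.6 and 33.2 TPM in control1, 40.96, 48.8 and 37.3 TPM in control2, 25.9, 20.8 and 18.5 TPM in control3 and 18.2 to 25.8 TPM (median 19.4) over the 9 deletion libraries (-0.64, standard error 0.24). PDK1 was at 52.3, 64.9 and 44.7 TPM in control1, 66.2, 68.5 and 54.3 TPM in control2, 37.2, 25.6 and 24.0 TPM in control3 and 23.8 to 36.9 TPM (median 32.6) with the deletion (-0.58, 0.28). PFKFB3, which makes the activator of phosphofructokinase, was at 23.5, 27.4 and 20.4 TPM, 22.7, 25.6 and 20.8 TPM, 9.93, 11.9 and 11.9 TPM and 9.49 to 14.7 TPM (median 12.6) in the same order (-0.55, 0.27). In these 3 members the libraries of control3 overlapped the deletion libraries and those of control1 and control2 did not.

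The mRNAs of the factors themselves gave no call. HIF1A was at 75.1, 79.5 and 77.4 TPM in control1, 79.5, 71.0 and 75.9 TPM in control2 and 141, 92.2 and 68.5 TPM in control3, and at 72.5 to 87.1 TPM (median 78.0) in deletion libraries, a difference of -0.08 that became 0.03 without control3. EPAS1 was at 1.21 to 5.56 TPM in controls and at 1.73 to 2.82 TPM with the deletion (-0.25, limma adjusted p 0.993). CA9, at 1.38 TPM or less in the controls, with 0 in 2 libraries of control3, was too low for this test.

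Leaving out control3 changed the outcome. The same test then called 2 members lower, ALDOC at -1.24 (limma adjusted p 0.0154) and PFKFB4, a second enzyme of phosphofructokinase control, at -1.19 (0.0319), of 7 genes called in all (0.046%), and 37 of 39 members were below 0. At an unadjusted limma p under 0.05, 33 of 39 members were lower, against 7.62% of genes. Control3 was the control line low in most of these members, so leaving it out raises the control mean. These counts are therefore a description and no support for a difference. The unadjusted count was not made without control1 or control2. Leaving out control1 or control2 instead called 0 members, and the median of the glycolytic enzymes shrank to -0.02 and -0.01, so the size of the difference depended on which control lines were used. The authors' deposited DESeq2 table calls 16 of 40 members lower and 0 higher (4.22% and 4.34% of 17075 genes), among them 6 of 16 glycolytic enzymes, with ALDOC at -0.86 and NDRG1 at -0.67, and whether it takes libraries or lines as replicates is not stated.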

How the data were processed

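The deposited tables hold TPM, a length-corrected share of transcripts scaled by the authors to 1 total per library. Per the submitters' processing notes, RSEM 1.3.0, DESeq2 1.14.1, STAR 2.5.2b, featureCounts 1.5.1 and Trimmomatic 0.35 were used with GRCh37. Which tool made the TPM, and whether strand was used, is not given in the sources used here. The deposited DESeq2 tables hold, per the file headers, a mean normalized signal, a log2 fold change, its standard error and statistic (each a score) and raw and adjusted p-values. TPM carries no depth, so precision rests on the spread between libraries. The Hi-C matrix was not used here.

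Gene symbols came from the reference names for 55487 of 60252 identifiers. Differences were tested with limma 3.58.1 (lmFit, eBayes with trend, two-sided) in R 4.3.3 on log2(TPM + 1), which makes changes of low genes smaller, for genes with at least 1 TPM in a number of samples equal to the smaller group (in at least 3 libraries for the line tests and for the deletion effect against the HOXA13 effect). The p-values were adjusted by Benjamini-Hochberg over all genes tested, and a gene was called under 0.05. C4-2B libraries were averaged per line for the deletion test. Neighbours are the 20 tested genes on each side in RefSeq's order.

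The members and lists were chosen with earlier results of these data known. All 41 members could be named; those given library by library are the ones called, the 5 with the largest change per comparison, HIF1A, EPAS1 and CA9, and others chosen after their values were seen. Further pathway genes are named where called, at most 6 per list. Some single genes are not reported here. Alternatives were another pseudocount (0.1), no filter, median-ratio scaling, leave-outs, a replicate block and wider fits.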

Additional observations from a re-analysis of the deposited data

Results flagged for a closer look

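In library 4 of the RWPE-1 deletion group, HK1 stood at 221.4 TPM, away from the other 6 libraries at 129.9 to 152.3 TPM. PGAM1 stood at 540.7 TPM in the same library, with the others at 341.9 to 359.4 TPM. BHLHE40 stood at 17.9 TPM in RWPE-1 control 5, below the other controls at 34.2 to 39.6 TPM. These are 3 of 62 groups examined for a sample far from the others at a 95% limit, and chance alone gives about 1 in 20. The response of P4HA2 in RWPE-1 differed between the deletion and forced HOXA13 by -0.85 on the log2 scale, tested as the difference of the 2 effects (limma adjusted p 0.00774).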

How the results depend on the processing

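TPM carries no depth, so low members (CA9, SLC2A3, EGLN3, ADM) cannot be given a counting error. Leave-outs gave 1072 to 1998 genes called for RWPE-1 deletion, 1 to 2 members higher and 1 to 4 lower; 1 to 5 genes for HOXA13; 5463 to 7010 genes, 6 to 9 members higher and 6 to 12 lower for eGFP against control; 0 to 7 genes and 0 to 2 members lower for C4-2B deletion; and 284 to 1103 genes for the deletion effect against the HOXA13 effect. Without a filter RWPE-1 deletion had 1 member lower, HOXA13 had 1 gene and C4-2B deletion 6 genes. The fit on all 18 RWPE-1 libraries gave 2 members higher for the deletion and 131 genes for HOXA13. Labelled numbers did not pair samples (correlations of same-numbered deviations from -0.15 to 0.14); the replicate block gave 449 genes and 1 member lower for RWPE-1 deletion, 1 gene for HOXA13, 10 genes for C4-2B deletion (libraries with the line as a random block) and 293 genes for the difference of effects, and changed no other count of members by over 1.5 times. Signs turned only in uncalled values. In leave-outs for RWPE-1 deletion, CA9 ran from -0.41 to 0.37, CA12 from -0.10 to 0.58 and HIF1A from -0.288 to 0.0269. For HOXA13, HIF1A became -0.0245 with median-ratio scaling and ran from -0.104 to 0.144 in leave-outs, and CA9 from -0.0125 to 0.438. HIF1A ran from -0.12 to 0.198 for eGFP and from -0.141 to 0.0332 for C4-2B deletion, and became 0.0143 without library 1 of control3.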
